A study of Homo sapiens with 6 samples.

Results

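The 38 genes described here code for the enzymes of glycolysis, for the proteins that handle lactate and glucose transport, for the VHL and HIF oxygen-sensing proteins, and for further targets of HIF. They were found by their gene symbol in a deposited table of 37879 rows, in which each row is 1 gene, and all 38 had a row. The list held 15 glycolytic enzymes, 6 genes of lactate and transport, 8 genes of oxygen sensing and 9 other HIF targets. Total RNA was taken from HEK293T, a human cell line of embryonic kidney origin with the large T antigen of SV40, and was hybridized to 6 Illumina HumanWG-6 v3 BeadChip arrays. The 3 control samples had been transfected with an empty vector, and the 3 Stau1 samples with a plasmid for Stau155-FLAG, the FLAG-tagged 55-kDa isoform of the RNA-binding protein Staufen1. All 6 samples had been exposed to 50 ng/ml nocodazole for 15 h, which blocks spindle assembly and is used to hold cells in prometaphase, so no array shows cells without the drug. The comparison asks whether overexpressed Stau155-FLAG altered mRNA levels in prometaphase cells, and VHL was among the transcripts that the study followed in Stau1 immune complexes.

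Glycolysis turns glucose into pyruvate in the cytosol, and lactate dehydrogenase can turn pyruvate into lactate. When oxygen is present, prolyl hydroxylases of the EGLN family mark the HIF alpha subunits, the VHL ubiquitin ligase binds the marked subunits, and the proteasome degrades them. When VHL is lost or oxygen is low, HIF alpha pairs with ARNT on DNA at a core of 5 bases (ACGTG or GCGTG) and drives genes for glucose uptake, glycolysis, blood vessel growth and pH control.

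The stretch of DNA just upstream of many of these genes holds that core, and sites from 11 genes are shown because they span the roles described below. Each line gives bases of the gene's own strand, 5′ to 3′, from the RefSeq promoter windows of GRCh38.p14. The core chosen (ACGTG, or CACGT where the core lies on the other strand) is in capitals. Other cores in these lines stay in small letters, among them another CACGT in PDK1 and GCGTG, on either strand, in HK2, PGK1 and BNIP3.
HK2: aatgggcgtgcgCACGTcactgatccgga
PFKP: ccacgagcgcctACGTGatgcccggcccg
ALDOA: ggcagggaggccACGTGatccgagtcccc
GAPDH: ctctgcggggtcACGTGtcgcagaggagc
PGK1: gcggcgtgccggACGTGacaaacggaagc
LDHA: agcccgactcacACGTGggttcccgcacg
PDK1: cctgctgcccgcCACGTccctcacgtacc
EGLN1: gggccgtggtgtACGTGcagagcgc
CA9: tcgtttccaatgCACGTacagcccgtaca
BNIP3: cgcacgcgccgcACGTGccacacgcaccc
DDIT4: agaacgttgcttACGTGcgcccggagtcc

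These stretches lie at chr2:74834067-74834095 on the plus strand for HK2, chr10:3069038-3069066 on the plus strand for PFKP, chr16:30064374-30064402 on the plus strand for ALDOA, and chr12:6535172-6535200 on the plus strand for GAPDH. They lie at chrX:78104034-78104062 on the plus strand for PGK1, chr11:18394465-18394493 on the plus strand for LDHA, chr2:172556061-172556089 on the plus strand for PDK1, and chr1:231422288-231422312 on the minus strand for EGLN1. The last 3 lie at chr9:35673898-35673926 on the plus strand for CA9, chr10:131982040-131982068 on the minus strand for BNIP3, and chr10:72273787-72273815 on the plus strand for DDIT4. The core lay 48 bases before an annotated transcript start in HK2, 13 bases before it in EGLN1, 80 bases in GAPDH and 202 bases in PGK1.

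Promoter windows matched 33 of the 38 genes, with PKM2 found under its current symbol PKM, and the genes with no window were VHL, SLC2A3, VEGFA, BNIP3L and NDRG1. Within the 250 bases upstream of any annotated start, ACGTG on either strand was found in 20 of these 33 genes (60.6%). The same search found it in 21.7% of 27305 genes with a window and in 29.3% of the 8313 genes whose array row was kept for testing. Counted per window, where genes with several starts weigh more, the shares were 37.1% of 62 windows of these genes and 18.5% of all 35116 windows. The other form, GCGTG, was found in 48.5% of the 33 genes, in 36.2% of all genes and in 53.8% of genes with a kept row. Per window, GCGTG was found in 30.6% of the windows of these genes and in 32.2% of all windows. CACGTG, which contains ACGTG on both strands, was found in 21.2% of the 33 genes, in 7.73% of all genes and in 11.5% of genes with a kept row. A match is a description of letters and not a site shown to be bound. Neither form was found upstream of PGAM1, PKM2, LDHB, SLC2A1, ARNT, EGLN3 or HIF1AN.

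None of the 33 transcripts that could be tested passed the threshold for a difference between Stau1 and control cells. Values below are log2 intensities after background correction and quantile normalization, and a change is the mean of the Stau1 arrays minus the mean of the control arrays on that scale. Of the 38 rows, 33 passed the filter (a detection p, which sets a row against the negative control beads of its array, under 0.05 on at least 3 of 6 arrays). The number called at an adjusted p under 0.05 by limma with Benjamini-Hochberg adjustment was 0 of 33, and it was 0 of 13285 (0%) over all kept rows, where the lowest adjusted p was 0.999. An unadjusted p under 0.05 was reached by 0 of 33, and by 495 of 13285 rows (3.73%), of which 2.4% of all rows were higher and 1.32% lower with Stau1. The methods' t-test, run on the same values, gave an unadjusted p under 0.05 for 2 of 33, PFKP and SLC2A1, where 3.48% of all kept rows passed. Of the 33, 13 were higher and 20 lower with Stau1, with a median change of -0.011, and the median over all kept rows was -0.0021. Under median scaling, which moved the median of all kept rows to 0.068, the split was 23 higher (69.7%, and 69.4% of all kept rows) and 10 lower with a median of 0.059, and the sign of 10 changes turned. The 95% interval of the change lay within 1.5-fold in either direction for 33 of 33, as it did for 86.7% of all kept rows. That count depended on the fit, and it was 24 of 33 under median scaling, 31 with array weights, 32 with the background taken from all rows, and 30 to 32 when 1 array was left out. Within 2-fold it was 33 of 33 in each of these fits. The labels do not say whether the samples of a group came from separate cultures, so these errors measure the spread between samples, which may be technical, and 3 arrays per group limit the precision. In such bulk RNA, fewer cells carrying a transcript and less of it per cell cannot be told apart.

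**Figure D1:**
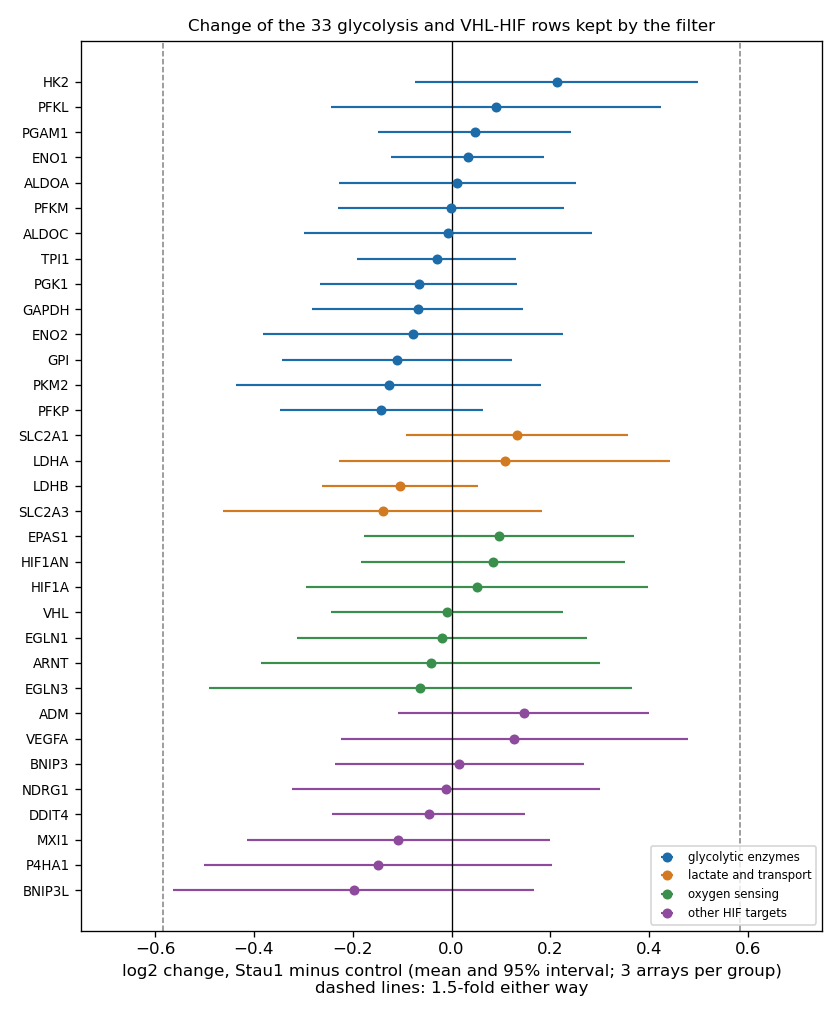
Log2 change (Stau1 minus control, horizontal axis) of the 33 glycolysis and VHL-HIF rows kept by the filter, as the limma estimate (point) with its 95% interval (line) from 3 arrays per group, coloured by role. Every interval spans 0 and, with the quantile normalization plotted here, stays inside the dashed lines at 1.5-fold (24 of 33 did under median scaling), with HK2 at 0.21 as the highest change and BNIP3L at -0.20 as the lowest.

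Before the genes are taken in turn, some facts of the arrays apply to all of them. Raw median intensity ran from 83.0 to 102 over the arrays, 12730 to 13469 rows were detected, and between 32 and 34 of the 38 genes were detected on each array. Pairwise correlations of the kept rows ran from 0.987 to 0.996. The lowest limma array weight, 0.399, belonged to control replicate 1, and the highest, 3.33, to Stau1 replicate 3. Of 8 marker genes of HEK293T cells, 6 were detected on all arrays, among them VIM, KRT8, KRT18, NEFL and NEFM, whereas PAX2 was detected on 1 array and EYA1 on none. The 5 kidney tubule markers included none detected on all arrays, and of 5 each for blood, fibroblast and colon epithelium, those detected on all arrays were 2 (CD14 among them), 1 (COL1A1) and 1 (CDX2). KRT8, a keratin among the HEK293T markers, read 7.38, 7.24 and 7.26 in control cells and 6.94, 6.33 and 6.76 in Stau1 cells (change -0.62, SE 0.175, adjusted p = 0.999 by limma), while the summed raw intensity of the 8 markers ran from 9272 to 13232 in control and from 10026 to 11667 in Stau1 cells. Its part in the values below was not tested. STAU1 itself, read by a row of several probes, was 11.21, 11.39 and 11.37 in control cells and 11.41, 11.53 and 11.48 in Stau1 cells, a change of 0.15 (SE 0.092). Its groups did not overlap, and whether its probes can read the plasmid's transcript is not known.

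VHL, the substrate-binding subunit of the ubiquitin ligase that removes HIF alpha, was detected on all 6 arrays. It read 9.63, 9.70 and 9.72 in control replicates 1 to 3 and 9.78, 9.57 and 9.67 in Stau1 replicates 1 to 3. The highest and the lowest array were both Stau1 arrays, with the control values between them. The change was -0.0090 (SE 0.11, 95% interval -0.24 to 0.23, n = 3 per group, adjusted p = 0.999 by limma), and its sign turned to 0.081 under median scaling.

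The HIF subunits likewise overlapped between groups. HIF1A, the oxygen-labile alpha subunit of HIF-1, read 7.90, 8.37 and 8.32 in control cells and 8.18, 8.45 and 8.12 in Stau1 cells. Control replicate 1 gave the lowest value, and the spread within the control group (SD 0.256) was larger than the change of 0.052 (SE 0.161). EPAS1, the alpha subunit of HIF-2, read 8.45, 8.43 and 8.37 in control cells and 8.58, 8.40 and 8.56 in Stau1 cells. Of the Stau1 arrays, replicates 1 and 3 lay above all controls and replicate 2 lay among them, with a change of 0.097 (SE 0.13). ARNT, the partner of both alpha subunits, was close to background, with 2 control arrays and 1 Stau1 array detected. Its row averages several probes, and its combined detection p did not follow the intensity. A raw intensity of 120 on Stau1 replicate 3 did not count as detected, whereas 106 on control replicate 1 did. ARNT read 5.54, 5.64 and 5.88 in control cells and 5.58, 5.90 and 5.45 in Stau1 cells, so a Stau1 array gave the highest value and another the lowest.

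Of the prolyl hydroxylases that mark HIF alpha, EGLN1 read 8.06, 7.99 and 8.04 in control cells and 7.92, 7.96 and 8.16 in Stau1 cells. The Stau1 arrays lay on both sides of the controls, with a change of -0.020 (SE 0.136). EGLN3, a hydroxylase gene that HIF itself induces, read 5.42, 6.33 and 5.84 in control cells and 5.83, 5.72 and 5.85 in Stau1 cells. Its control arrays, 2 of which were detected, held both the highest and the lowest value, and its 1.88-fold range over the 6 arrays was the widest among the 33 kept genes. EGLN2 read 10.28, 10.28 and 10.40 in control cells and 10.47, 10.25 and 10.41 in Stau1 cells. HIF1AN, the asparaginyl hydroxylase that blocks coactivator binding to HIF alpha, read 8.40, 8.40 and 8.45 in control cells and 8.55, 8.43 and 8.52 in Stau1 cells, and 2 of its 3 Stau1 arrays lay above all controls.

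EGLN2 did not pass the filter although its signal was bright. Its row averages several probes and carries a combined detection p that was under 0.05 on 2 control arrays and no Stau1 array, whereas its lowest intensity lay 57.6 background SDs above the background mean. With no filter its change was 0.055 (SE 0.115, adjusted p = 0.999 by limma). HK1, the hexokinase of most tissues, was in the same position, with a detection p under 0.05 on 1 Stau1 array and a lowest intensity 53.2 background SDs above background. HK1 read 10.17, 10.26 and 10.35 in control cells and 10.41, 10.26 and 10.36 in Stau1 cells. The groups overlapped, with a change of 0.080 (SE 0.115, adjusted p = 0.999 by limma) when no filter was applied.

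Among the 14 kept glycolytic enzymes, 5 were higher and 9 lower with Stau1, with a median change of -0.019, and 11 were higher and 3 lower under median scaling. HK2, the hexokinase that HIF induces, had the largest change and the lowest unadjusted p of all 33 genes. It read 8.24, 8.35 and 8.40 in control cells and 8.39, 8.66 and 8.58 in Stau1 cells. Replicate 1 of Stau1 lay just below the highest control, and the other Stau1 arrays lay above all controls. The change was 0.21 (SE 0.133, 95% interval -0.074 to 0.50, n = 3 per group, unadjusted p = 0.133, adjusted p = 0.999 by limma).

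Phosphofructokinase, which commits sugar phosphate to glycolysis, has 3 subunit genes on the list, and their changes did not share a sign. PFKP, the platelet-type subunit, read 10.71, 10.73 and 10.66 in control cells and 10.51, 10.52 and 10.64 in Stau1 cells. All Stau1 arrays lay below all controls, and the change was -0.14 (SE 0.095, exact permutation p = 0.1, the smallest that 3 arrays against 3 can give). PFKL, the liver-type subunit, read 8.29, 8.16 and 8.12 in control cells and 8.58, 8.06 and 8.20 in Stau1 cells. Stau1 arrays were both highest and lowest, with a change of 0.090 (SE 0.155). PFKM, the muscle-type subunit, read 10.15, 10.05 and 9.97 in control cells and 10.13, 9.95 and 10.08 in Stau1 cells, and the group means were 10.05 in both.

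PFKP was 1 of 2 kept genes whose groups did not overlap (6.06% of 33, where 7.91% of all kept rows did not overlap). Lower with Stau1 without overlap were 1 of 33 of these genes and 3.4% of all kept rows, and higher without overlap were 1 of 33 and 4.51%. The other gene was SLC2A1, the basal glucose transporter GLUT1. It read 9.71, 9.67 and 9.71 in control cells and 9.86, 9.76 and 9.87 in Stau1 cells. Every Stau1 array lay above every control, and the change was 0.13 (SE 0.104, exact permutation p = 0.1, adjusted p = 0.999 by limma). These shares were near the background. The largest ratio of Stau1 over control among the 33 genes was 1.16 for HK2, and the smallest was 0.871 for BNIP3L.

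Of the other glycolytic enzymes, GPI, which turns glucose 6-phosphate into fructose 6-phosphate, read 12.10, 11.93 and 11.67 in control cells and 11.71, 11.80 and 11.85 in Stau1 cells. The control arrays spanned the Stau1 arrays, with a change of -0.11 (SE 0.108). Without control replicate 3, whose value is the lowest of the 6, the change was -0.23 and the unadjusted p by limma was 0.036, with 12.7% of all rows below 0.05 in that fit. GAPDH, which oxidizes glyceraldehyde 3-phosphate and often serves as a loading reference, read 14.02, 13.65 and 13.66 in control cells and 13.78, 13.62 and 13.72 in Stau1 cells. Control replicate 1 lay above the rest, and the change was -0.069 (SE 0.099) with that array, 0.053 without it, and 0.0070 with all arrays under median scaling.

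PKM2, the older symbol of the pyruvate kinase M gene, names the row for the last step of glycolysis, which read 10.97, 10.39 and 10.37 in control cells and 10.48, 10.39 and 10.47 in Stau1 cells. Again control replicate 1 stood highest, and the change was -0.13 (SE 0.143) with it and 0.068 without it. The other enzymes of the lower pathway (ALDOA, ALDOC, TPI1, PGK1, PGAM1, ENO1 and ENO2) had changes between -0.078 for ENO2 and 0.047 for PGAM1. Their SEs ran from 0.072 for ENO1 to 0.141 for ENO2. Rows for GAPDH and PGAM1, and for the transporter SLC2A3, could also take signal from transcripts of near-identical copies, which was not tested because probe sequences were not used here.

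LDHA, which makes lactate from pyruvate, read 13.39, 14.11 and 14.08 in control cells and 13.79, 14.11 and 14.00 in Stau1 cells. Control replicate 1 was the lowest array, and the SD of 0.408 in the control group exceeded the change of 0.11 (SE 0.155), which was -0.13 without that array. LDHB, the heart-type subunit, read 13.76, 13.79 and 13.68 in control cells and 13.60, 13.70 and 13.60 in Stau1 cells. Replicates 1 and 3 of Stau1 lay below all controls and replicate 2 lay between them, with a change of -0.10 (SE 0.073, unadjusted p = 0.177 and adjusted p = 0.999 by limma). SLC2A3, the high-affinity glucose transporter GLUT3, read 7.92, 7.93 and 8.06 in control cells and 8.07, 7.70 and 7.71 in Stau1 cells. The highest and the 2 lowest values were Stau1 arrays, and the change was -0.14 (SE 0.150).

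The remaining genes of this group were at or near background. SLC16A3, the lactate exporter MCT4, was detected on 0 of 6 arrays, with raw intensities from 70.0 to 89.6. PDK1, the kinase that closes pyruvate dehydrogenase under hypoxia, was detected on 0 control arrays and 2 Stau1 arrays, with raw intensities from 95.5 to 109 in control cells and from 102 to 116 in Stau1 cells. No fold is given for either gene. SLC16A3 was detected in neither group. For PDK1, the detection limit in control cells was as high as its level in Stau1 cells. Both genes hold ACGTG upstream (the PDK1 stretch is shown above), as does CA9, the surface carbonic anhydrase, which was detected on 1 control and 1 Stau1 array with intensities from 90.7 to 121.

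Of the 9 HIF targets outside metabolism, 8 passed the filter, of which 3 were higher and 5 lower with a median change of -0.029 (5 higher and 3 lower under median scaling). VEGFA, the main growth factor for vessel endothelium, was detected on 3 control arrays and 1 Stau1 array. Its row averages several probes, and its combined detection p did not follow the intensity. Raw intensities of 147 on Stau1 replicates 2 and 3 did not count as detected, whereas 114 on control replicate 2 did. VEGFA read 6.17, 5.72 and 5.76 in control cells and 5.86, 6.09 and 6.08 in Stau1 cells. Control replicate 1 was the highest array and the other controls the lowest, with a change of 0.13 (SE 0.162). ADM, the vasodilator peptide adrenomedullin, read 10.78, 10.86 and 11.17 in control cells and 11.24, 10.98 and 11.03 in Stau1 cells. Control replicate 3 lay among the Stau1 arrays, and the change was 0.15 (SE 0.118). Without control replicate 3 it was 0.26, with an unadjusted p of 0.032 by limma, and again 0 of 33 genes passed the adjusted threshold, while 39 of 13285 rows (0.294%) did.

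BNIP3 and BNIP3L, which recruit autophagy to mitochondria, had changes of opposite sign, neither of which passed the test. BNIP3L read 8.26, 8.64 and 8.22 in control cells and 7.97, 8.48 and 8.07 in Stau1 cells. Replicates numbered 2 were the highest in each group, and the change of -0.20 (SE 0.169) was smaller than the SDs of 0.235 and 0.270 within the groups. BNIP3 had a change of 0.016 (SE 0.117). NDRG1, a stress-responsive gene, differed by -0.011 (SE 0.145), P4HA1, a collagen prolyl hydroxylase subunit, by -0.15 (SE 0.163), and DDIT4, an inhibitor of mTORC1 signalling, by -0.047 (SE 0.090). MXI1, an antagonist of MYC, differed by -0.11 (SE 0.142) and was close to background, with its lowest intensity 2.67 background SDs above the background mean.

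**Figure D2:**
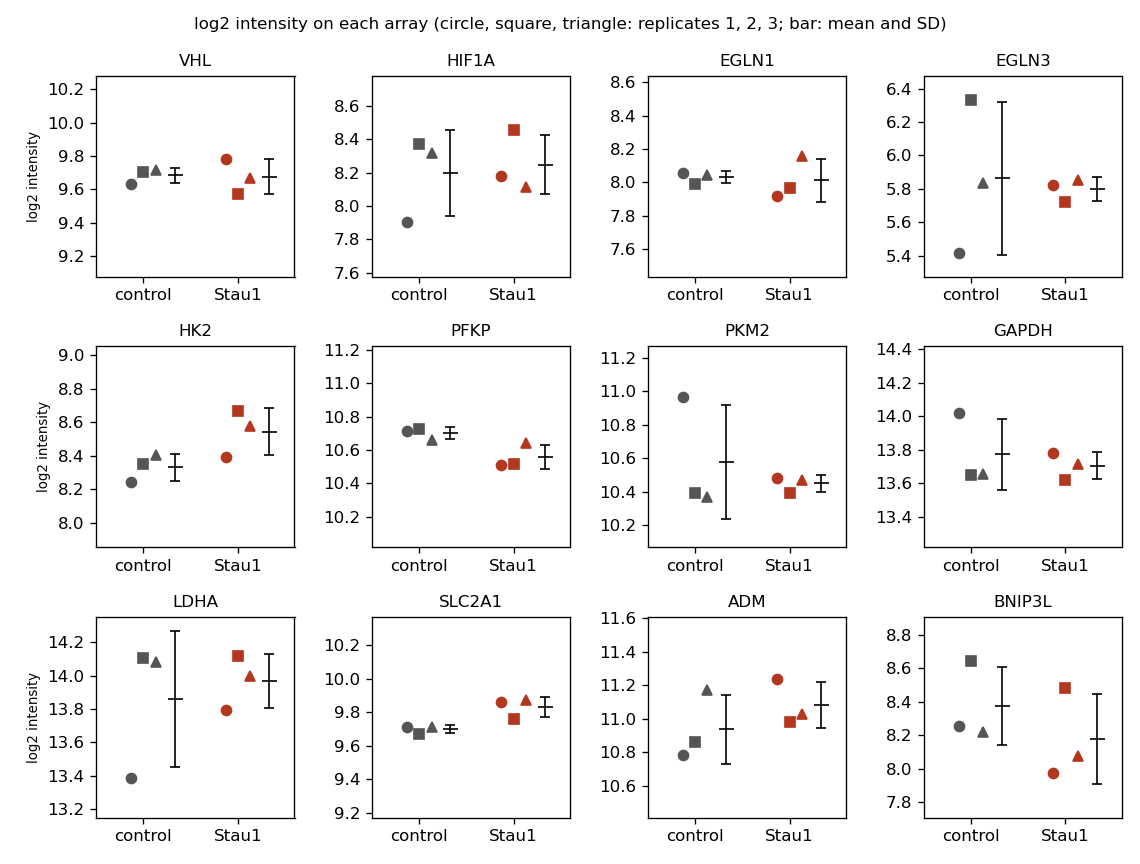
Log2 intensity (vertical axis, 1.2 units high in each panel) of 12 of the genes on each of the 3 control arrays (grey) and 3 Stau1 arrays (red), with circles, squares and triangles for replicates 1, 2 and 3 and bars for the mean and SD of the group. Groups overlap in 10 panels and do not in PFKP and SLC2A1, and control replicate 1 stands apart in LDHA, PKM2 and GAPDH.

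Several of these genes took their extreme values together on 1 array. Control replicate 1 gave the highest value in 9 of 14 kept glycolytic enzymes (64.3%), against 26.9% of all kept rows, and their median deviation from the row mean was 0.10 on that array and -0.083 to 0.011 on the others. Over all 33 genes, that array gave the highest or lowest value in 54.5%, against 52.4% of all kept rows. Of the neighbouring lists below, its median deviation was 0.095 for further glycolytic enzymes and transporters and 0.098 for the pentose phosphate pathway. It was -0.10 for pyruvate dehydrogenase, 0.025 for VHL ligase partners and -0.026 for further HIF targets. Control replicate 1 also gave the lowest value in 7 of the 33 genes (21.2%, against 25.5% of all kept rows). These were HK2, LDHA, HIF1A, EGLN3, HIF1AN, ADM and BNIP3. Control replicate 2 gave the highest value in 5 of 8 kept HIF targets outside metabolism (62.5%), against 20.1% of all kept rows, with a median deviation of 0.18. Without control replicate 1, the median change of the glycolytic enzymes was 0.061 in place of -0.019, and without Stau1 replicate 2 it was 0.034. Leaving out each array in turn, this median ran from -0.063 to 0.061. Without control replicate 2, the enzymes split into 2 higher and 12 lower. The 5 genes whose 6 values ranged over more than 1.5-fold were PKM2, LDHA, EGLN3, BNIP3L and P4HA1. The median SD of the 33 genes was 0.117 in control and 0.103 in Stau1 arrays, and over all kept rows it was 0.174 and 0.117. With array weights, which gave control replicate 1 the lowest weight (0.399) and Stau1 replicate 3 the highest (3.33), the median change of the glycolytic enzymes was 0.015.

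**Figure D3:**
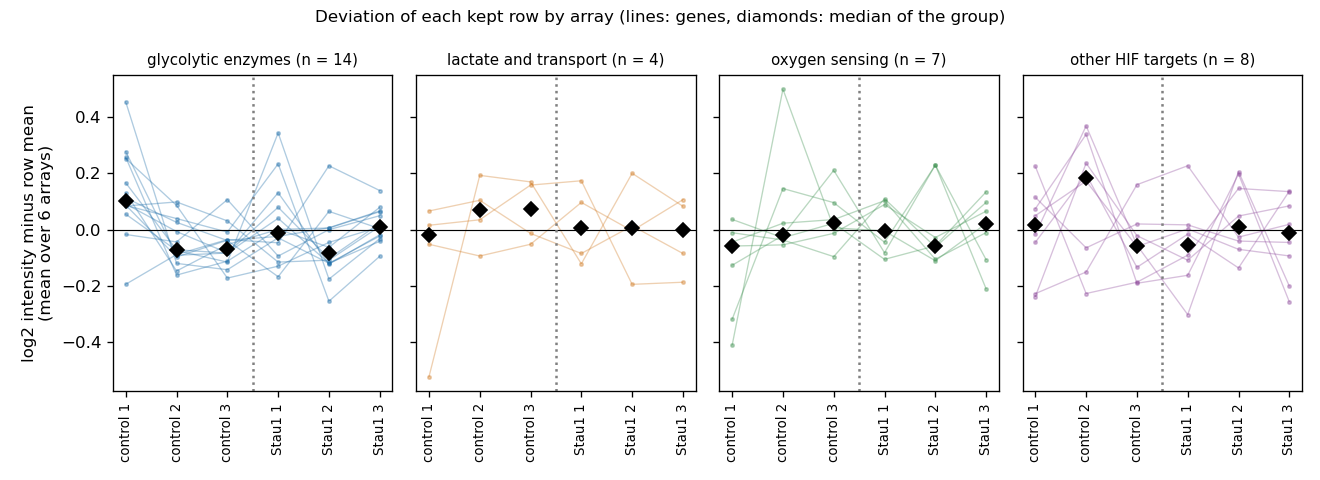
Deviation of each kept gene from its own mean over the 6 arrays (log2, vertical axis) on each array (horizontal axis, controls left of the dotted line), by role, with lines for genes and diamonds for the median of the group. The glycolytic enzymes sit high on control replicate 1, with a median of 0.10, and the other HIF targets on control replicate 2, with a median of 0.18.

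The changes were also set against the ACGTG core, as a description. Of the 28 kept genes with a promoter window, 16 held the core, and 4 of them were higher and 12 lower, with a median change of -0.038. The other 12 held none, and 8 of them were higher and 4 lower, with a median change of 0.049. Under median scaling the first split turned to 12 higher and 4 lower, with a median of 0.041, and the second was again 8 and 4, with a median of 0.14. With array weights the splits were 7 higher and 9 lower with the core, and 7 and 5 without it. When 1 array was left out, they ran from 3 and 13 to 7 and 9 with the core. Without the core they ran from 7 and 5 to 9 and 3. The split of all kept rows that hold the core was not counted, so these splits have no background.

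Neighbouring pathways gave the same count of 0 rows called. Of 30 further glycolytic enzymes and glucose transporters, 14 were kept, 5 higher and 9 lower (7 and 7 under median scaling). SLC2A12, a glucose transporter outside the GLUT1 class, was the lowest in p, at 6.60, 6.80 and 6.08 in control cells and 5.84, 5.88 and 6.07 in Stau1 cells, with no overlap and a change of -0.57 (SE 0.186, adjusted p = 0.999 by limma). Without overlap were 1 higher and 1 lower of these 14 genes (14.3%, against 7.91% of all kept rows). The isoenzymes HK3, HKDC1, GAPDHS, PGK2, PGAM2, PKLR and LDHAL6B and the transporters SLC2A2, SLC2A4 and SLC16A1 were not detected on any array.

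Of 11 genes of the pentose phosphate pathway, 9 were kept, 4 higher and 5 lower (6 and 3 under median scaling), with PRPS2 at -0.17 (SE 0.113) and TALDO1 at -0.097 (SE 0.109). All 13 genes of pyruvate dehydrogenase and its regulators were kept, 8 higher and 5 lower (11 and 2 under median scaling). PDK4 was at -0.44 (SE 0.239) and close to background, with 2 control arrays and 1 Stau1 array detected. PDP2, a row of several probes, was at 0.27 (SE 0.147) and also close to background, with raw intensities from 111 to 154. Without overlap were 2 higher, PDP2 among them, and 0 lower of the 13 (15.4%, against 7.91% of all kept rows). Of 12 partners of the VHL ligase, 10 were kept, 2 higher and 8 lower (9 and 1 under median scaling), and NEDD8, the ubiquitin-like protein that activates cullins, was at -0.098 (SE 0.076) and CUL2, the scaffold of the ligase, at -0.067 (SE 0.105). Of 26 further HIF targets, 21 were kept, 11 higher and 10 lower (12 and 9 under median scaling). BHLHB2, a transcriptional repressor now named BHLHE40, read 9.69, 9.70 and 10.06 in control cells and 10.19, 10.15 and 10.16 in Stau1 cells. TFRC, the transferrin receptor, read 11.74, 12.20 and 12.22 in control cells and 12.38, 12.40 and 12.37 in Stau1 cells. In these genes every Stau1 array lay above every control, with changes of 0.35 (SE 0.120) and 0.33 (SE 0.116) and an adjusted p of 0.999 by limma. Without overlap in the other direction were LOX at -0.27 (SE 0.140) and P4HA2 at -0.17 (SE 0.130), named after their values were seen. That makes 2 higher and 2 lower of the 21 (19.0%). Over all kept rows, 4.51% were higher without overlap and 3.4% lower (7.91% together). The difference between these shares was not tested.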

How the data were processed

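Total RNA of 3 control and 3 Stau1 samples was grouped by the transfection in the labels. The labels' time in nocodazole is printed, and the study's methods give a different one. Per the file headers, the deposited table was a BeadStudio gene profile without normalization, and the authors' signal intensity of each row was a mean over the probes of 1 gene. A detection p-value, the bead standard error of the signal and the number of beads (at least 25 for these genes) were deposited beside it. Slides were not named in the table.

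Intensities were background-corrected (normexp, offset 16, with the background inferred from the detection p-values of 30932 rows of 1 probe), quantile normalized and put on a log2 scale with limma 3.58.1 in R 4.3.3. The filter kept 13285 rows (35.1%), those whose detection p fell below 0.05 on 3 or more of the 6 arrays. Rows of several probes carry a combined detection p. The groups were compared by lmFit and eBayes (variance trend included), p-values were adjusted by Benjamini and Hochberg over all kept rows, and the threshold was 0.05. The methods' t-test (two-sided, equal variances), which the study names for immunoprecipitated RNA, was run as an alternative beside those listed in the closing part. The script was tested on simulated data. The members, gene lists and tests were chosen with earlier results of these data known.

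Named with a value on every array were VHL, the HIF subunits and hydroxylases, HK1, HK2, the phosphofructokinases, PKM2, GAPDH, LDHA, SLC2A1, VEGFA, and the 8 kept genes of lowest unadjusted p. Of each neighbouring list, up to 2 kept genes of lowest unadjusted p were named, and 1 gene so named is not reported here. Tests had been planned for probes but were run on genes, which the rows are. Promoters were taken from RefSeq (GRCh38.p14), and symbols were matched to it for names only.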

Additional observations from a re-analysis of the deposited data

How the results depend on the processing

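Tried were cyclic loess or median scaling for quantile normalization, an offset of 50, no background correction, array weights, no variance trend, no filter, a stricter filter (detection p under 0.01 on all arrays), the replicate number as a block, the methods' t-test, leaving out each array, and, chosen after seeing the data, a background from all rows. A slide block was not run. No gene of the 33 was called under any of them. The number of rows called was 0 in all but the fit without control replicate 3, so it ran from 0 to 39 when 1 array was left out. Median scaling moved the median of all rows from -0.0021 to 0.068, and with it the changes of VHL to 0.081, PFKM to 0.078, ALDOC to 0.093, TPI1 to 0.041, GAPDH to 0.0070, PGK1 to 0.030, ENO2 to 0.018, EGLN1 to 0.059, NDRG1 to 0.065 and DDIT4 to 0.040. With array weights, PFKM was 0.017, ALDOC 0.019, TPI1 0.012, HIF1A -0.077, EGLN1 0.056 and BNIP3 -0.038. With cyclic loess, ALDOC was 0.0064 and ENO1 -0.0036. For the signs that turned, the cause was not tested. Leaving out 1 array, changes ran from -0.063 to 0.042 for VHL, -0.043 to 0.050 for PFKM, -0.074 to 0.075 for ALDOC, -0.13 to 0.053 for GAPDH, -0.23 to 0.068 for PKM2, -0.13 to 0.23 for LDHA, -0.095 to 0.14 for HIF1A, -0.100 to 0.14 for BNIP3, -0.067 to 0.14 for ALDOA, -0.015 to 0.12 for PGAM1, -0.0084 to 0.084 for ENO1, -0.29 to 0.17 for EGLN3, -0.082 to 0.085 for NDRG1, -0.062 to 0.016 for TPI1, -0.17 to 0.053 for ARNT, -0.059 to 0.20 for PFKL, -0.12 to 0.00097 for PGK1, -0.092 to 0.028 for EGLN1 and -0.21 to 0.031 for ENO2. Without a change of sign they ran from -0.35 to -0.063 for BNIP3L, -0.28 to -0.016 for P4HA1, -0.23 to -0.012 for GPI, -0.26 to -0.077 for SLC2A3, -0.17 to -0.048 for MXI1, -0.091 to -0.00080 for DDIT4, 0.045 to 0.27 for VEGFA, 0.069 to 0.26 for ADM and 0.066 to 0.15 for EPAS1. The sign also held for HK2 (0.15 to 0.29), PFKP (-0.18 to -0.12), SLC2A1 (0.11 to 0.17), LDHB (-0.14 to -0.079) and HIF1AN (0.061 to 0.12).

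At an unadjusted p under 0.05 the methods' t-test passed 2 of the 33 genes, PFKP and SLC2A1, and 462 of all rows (3.48%). Over all rows that count was 229 with median scaling, 1566 with no filter, 317 with the stricter filter and 1290 with array weights, and 238 to 1686 when 1 array was left out. Same-numbered arrays deviated from their group means with correlations of 0.015, 0.26 and -0.14, and the labels name no shared batch, which leaves the samples unpaired. With the replicate number as a block, 0 rows and 0 of the 33 genes were called, and 605 rows had an unadjusted p under 0.05. Genes near background (ARNT, EGLN3, VEGFA, MXI1, CA9, PDK1 and SLC16A3) are limited by signal over background.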
